A study of Drosophila melanogaster with 7 samples.

Results

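Glycolysis splits glucose into pyruvate in a chain of cytosolic enzymes, and lactate dehydrogenase turns pyruvate into lactate, which restores the NAD+ that the chain consumes. In Drosophila larvae this set of enzymes is part of a growth program that includes lactate production, and muscle is among the tissues rich in them. 10 genes are described, found as the rows of the gene tables whose name equals the listed one exactly, out of 17697 named rows. They are, in the order of the pathway, Hex-A, Pgi, Pfk, Ald, Tpi, Gapdh1, Pgk, Eno, PyK and ImpL3, of which ImpL3 is the older name of the lactate dehydrogenase gene Ldh. The rule itself uses names only, but the 10 genes were listed with earlier results of these data known. All 10 passed the filter on low counts.

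The data are RNA-seq read counts per gene from tracheae, the epithelial tubes that carry air, of larvae in the third instar. In 3 libraries, called HopCA, Hop.CA, a form of the JAK kinase gene hop, was expressed ectopically. Those larvae grew at 18 °C and spent 18 hours at 29 °C, starting at the second larval stage, before sampling. 4 control libraries, titled wild type, came from larvae kept at 18 °C throughout. The strain label gives btl-Gal4, UAS-GFP, UAS-Hop.CA and tub-Gal80ts for both groups. btl-Gal4 drives expression in tracheal cells, and the Gal80ts repressor is inactivated by heat. Hop.CA expression and temperature changed together and cannot be told apart in these groups. Each library is titled a biological replicate, but the number of larvae behind it is not stated. The p-values weigh the difference between the groups against the spread between these libraries, estimated with information from all tested genes.

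The libraries held 18618125 to 19597298 reads in genes for HopCA and 16795748 to 20455268 for control. hop was at 1444, 1593 and 1342 CPM (reads per 1000000 reads of a library's normalised size) in HopCA, against 38.4, 43.3, 40.1 and 44.03 CPM in control, so the labels matched the targeted gene. The JAK/STAT receptor gene dome (log2 1.68 ± 0.147 SE) and the pathway target Socs36E (log2 1.44 ± 0.144 SE) rose as well. Stat92E, the remaining gene of the 4 JAK/STAT genes examined, was not called (log2 0.21 ± 0.0864 SE, edgeR adjusted p = 0.102). 13 tracheal markers, of which 3 were called higher and 2 lower, summed to 15663 to 16476 CPM in HopCA and 10701 to 11480 CPM in control, with none at 0, and most of both sums came from the chitin deacetylase genes serp (log2 0.74) and verm (log2 0.58). Osi9 fell by 1.39 on the log2 scale (edgeR adjusted p = 0.00257), and btl by 0.63 (0.0138, and 0.0512 without HopCA replicate 1). 20 muscle markers summed to 5059, 12928 and 6453 CPM in HopCA replicates 1 to 3, and to 15601, 12060, 19643 and 24537 CPM in control replicates 1 to 4. Muscle transcripts were thus present in every library, and their level overlapped between the groups only through HopCA replicate 2 and control replicate 2. 14 imaginal disc markers, of which 8 were called lower (1 without HopCA replicate 2 or 3, 4 without control replicate 3) and 1 higher, summed to 195 to 221 CPM in HopCA and 208 to 377 CPM in control. Most of that sum came from sd, which was not called, and the other 13 summed to 41.03 to 64.2 CPM in HopCA and 95.1 to 203 CPM in control. The counts called in these lists are to be read against all tested genes, of which 16.4% were called higher and 15.1% lower. In bulk tissue, fewer cells of a type and less RNA per cell cannot be told apart.

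Hex-A, which encodes the hexokinase of the entry step, rose in HopCA, while Pfk, Tpi, PyK and ImpL3 fell and the other 5 genes were not called. A gene was called at a Benjamini-Hochberg adjusted p under 0.05 in edgeR's quasi-likelihood test over 9457 genes. Of the 10 genes, 5 were called, against 31.5% of all tested genes. 4 were called lower, where 15.1% of all tested genes were, and 1 was called higher, where 16.4% were. For these same 5 genes every HopCA library lay on one side of every control library, as it did for 43.3% of all tested genes. The separated genes were 1 higher and 4 lower of the 10, and 23.3% higher and 20% lower of all tested genes. The median log2 fold change was -0.28 over the 10 genes and -0.01 over all tested genes. The count of called genes among the 10 was 2, namely Hex-A and Tpi, without HopCA replicate 1, and likewise without HopCA replicate 3. Over all genes 2978 were called, 1829 without HopCA replicate 1 and 1676 without HopCA replicate 3.

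**Figure D1:**
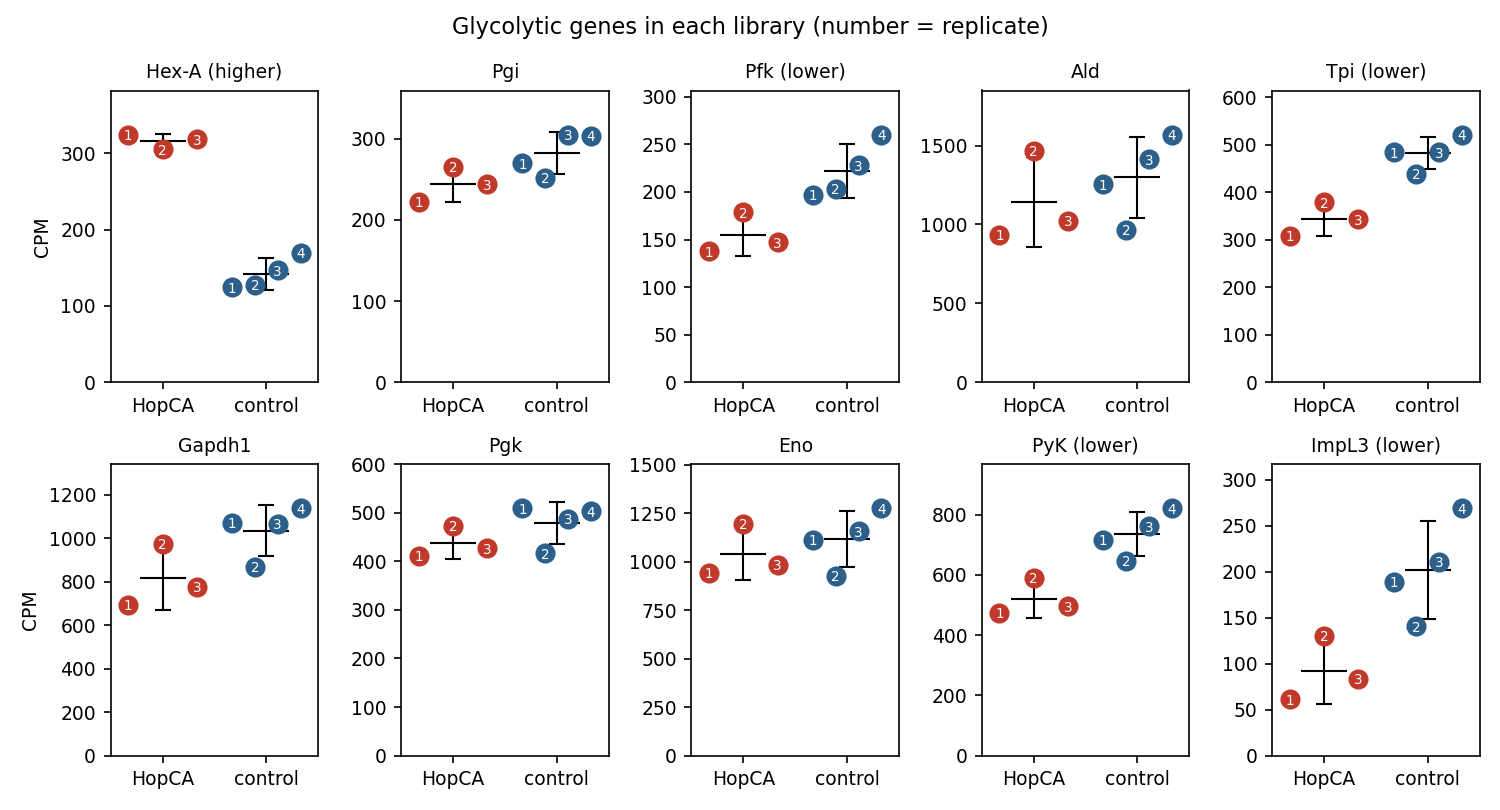
CPM of each of the 10 genes in the 3 HopCA libraries (red, left) and the 4 control libraries (blue, right), with the mean and SD in black and the replicate number inside each point. Hex-A lies at 305 to 324 CPM in HopCA and at 124 to 170 CPM in control, and HopCA replicate 2 is the highest HopCA library for 9 of the 10 genes.

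Hex-A lies on chromosome X at 9585675 to 9589813 (dm6, plus strand), and hexokinase traps glucose in the cell as glucose 6-phosphate. It had 324, 305 and 319 CPM in HopCA replicates 1 to 3, against 124, 128, 147 and 170 CPM in control replicates 1 to 4. Every HopCA library was above every control library, and the HopCA libraries lay close together. The means were 316 ± 9.66 CPM in HopCA and 142 ± 21.0 CPM in control (SD, n = 3 and 4), 2.22-fold higher in HopCA (log2 1.15 ± 0.116 SE, edgeR adjusted p = 6.81e-04). The call held in each of 18 alternative settings (log2 1.08 to 1.25). The deposited annotation gives Hex-A exons over its whole length of 4139 bases, no read spanned an exon junction, and none of its reads was shared with another gene. Tested genes within 25000 bases of Hex-A, a distance chosen after the values were seen, numbered 6. Of these 1 was called, higher in HopCA, where 16.4% of all tested genes were called higher. Their log2 fold changes ran from -0.20 to 0.31.

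The other hexokinase genes were scarcely read. Hex-C, another hexokinase gene, was at 0.391 to 1.10 TPM in HopCA and 0.201 to 0.826 TPM in control. None of the Hex-C reads in any library was unique to the gene, so its level is uncertain. TPM, the authors' deposited length-scaled values, sum to the same total in each library and so compare genes. Hex-t1 and Hex-t2, known from testis, stayed at or below 0.166 TPM in each library. Of the summed TPM of Hex-A and Hex-C, Hex-A made up 99.1% to 99.7% in HopCA and 98.5% to 99.6% in control. These shares carry the uncertainty of the Hex-C count.

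Pgi, on chromosome 2R at 8910900 to 8914069 (minus strand), encodes the isomerase that makes fructose 6-phosphate. It had 222, 266 and 244 CPM in HopCA, against 270, 252, 305 and 303 CPM in control. HopCA replicate 2 lay above control replicate 2, so the groups overlapped, and the gene was not called (log2 -0.21 ± 0.101 SE, 95% interval -0.45 to 0.02, edgeR adjusted p = 0.147).

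Pfk, on chromosome 2R at 10109740 to 10117457 (plus strand), encodes phosphofructokinase, the committed and most regulated step of glycolysis. It had 138, 179 and 147 CPM in HopCA, against 197, 203, 228 and 260 CPM in control. All HopCA libraries were below all control libraries, with HopCA replicate 2 nearest. Pfk fell by 0.52 on the log2 scale (SE 0.131, edgeR adjusted p = 0.0197). The call was lost without HopCA replicate 1 (edgeR adjusted p = 0.0780) and without HopCA replicate 3 (0.0797). Exon-exon reads numbered 239, 324 and 237 in HopCA and 333, 375, 343 and 499 in control, and the log2 ratio of their mean CPM was -0.53.

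Pfk and Hex-A, at neighbouring control points of the pathway, moved apart. Per length, Hex-A stood at 2.53, 1.83 and 2.33 times the TPM of Pfk in HopCA replicates 1 to 3, against 0.673, 0.681, 0.697 and 0.706 times in control replicates 1 to 4. The ratio was nearly the same in all control libraries and higher, but more spread, in HopCA.

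Ald, on chromosome 3R at 26254069 to 26261591 (minus strand), is named Ald1 in the current annotation and encodes the aldolase that cleaves fructose 1,6-bisphosphate. It had 933, 1466 and 1022 CPM in HopCA, against 1253, 966, 1413 and 1567 CPM in control. HopCA replicate 2 exceeded 3 of the 4 control libraries and control replicate 2 lay below 2 of the 3 HopCA libraries. The gene was not called (log2 -0.19 ± 0.206 SE, 95% interval -0.67 to 0.29, edgeR adjusted p = 0.514). Its interval was the widest after that of ImpL3.

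Tpi, on chromosome 3R at 30132981 to 30134599 (minus strand), encodes triosephosphate isomerase, which makes both products of the aldolase step available to the later steps. It had 309, 379 and 343 CPM in HopCA, against 485, 439, 485 and 520 CPM in control. The groups were clearly apart, at 344 ± 35.3 and 482 ± 33.3 CPM (SD, n = 3 HopCA and 4 control). Tpi fell by 0.49 on the log2 scale (SE 0.0988, edgeR adjusted p = 0.00891), and the call held without any 1 library. Among 5 tested genes within 25000 bases of Tpi, 3 were called lower, against 15.1% of all tested genes. Another of the 5 is sima, the HIF-1 alpha gene, which was not called. In the same window 0 of 9 tested genes were called lower around Pfk, 1 of 12 around PyK and 0 of 3 around ImpL3. Around the genes that were not called, the counts were 1 of 18 for Pgi, 0 of 1 for Ald and 3 of 10 for Gapdh1. They were 0 of 14 for Pgk and 2 of 11 for Eno.

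Gapdh1, on chromosome 2R at 7791901 to 7793380 (minus strand), encodes glyceraldehyde-3-phosphate dehydrogenase, the step that reduces NAD+. It had 694, 975 and 777 CPM in HopCA, against 1071, 868, 1065 and 1136 CPM in control. HopCA replicate 2 lay above control replicate 2, and the gene was not called (log2 -0.34 ± 0.142 SE, 95% interval -0.67 to -0.02, edgeR adjusted p = 0.0991). Without HopCA replicate 2 it was called lower (log2 -0.49, edgeR adjusted p = 0.0425).

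Its paralog Gapdh2, on chromosome X, was the more abundant GAPDH transcript, at 1591 ± 66.7 TPM in HopCA and 2302 ± 186 TPM in control, against 846 ± 125 and 1044 ± 123 TPM for Gapdh1 (SD, n = 3 HopCA and 4 control). Gapdh2 had 1413, 1612 and 1453 CPM in HopCA and 2353, 1970, 2218 and 2362 CPM in control, without overlap. It fell by 0.58 on the log2 scale (SE 0.0965, edgeR adjusted p = 0.00443), and this call held without any 1 library. Gapdh1 made up 32.4%, 37.1% and 34.3% of the TPM of both genes in HopCA, against 30.7%, 30.05%, 31.9% and 31.9% in control. At most 0.19% of Gapdh1 reads in any library were also assigned elsewhere.

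Pgk, on chromosome 2L at 2746880 to 2753068 (minus strand), encodes phosphoglycerate kinase, the first ATP-forming step. It had 412, 473 and 427 CPM in HopCA, against 509, 417, 488 and 503 CPM in control, and was not called (log2 -0.13 ± 0.0981 SE, 95% interval -0.36 to 0.09, edgeR adjusted p = 0.333). Eno, on chromosome 2L at 1724768 to 1729636 (minus strand), encodes enolase, which makes phosphoenolpyruvate. It had 942, 1195 and 985 CPM in HopCA, against 1113, 928, 1157 and 1274 CPM in control, and was not called (log2 -0.10 ± 0.131 SE, 95% interval -0.41 to 0.20, edgeR adjusted p = 0.576). For both genes the groups overlapped, with control replicate 2 inside the HopCA range for Pgk and below it for Eno. Pglym78, the phosphoglycerate mutase between these steps, was not called either (log2 -0.22 ± 0.128 SE, edgeR adjusted p = 0.223).

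Ald, Pgk and Eno share bases with genes on the opposite strand, and whether counting used strand is not given in the sources used here, although the libraries were made with a stranded kit. Eno overlaps Rrp40 over 905 bases, and Rrp40 was read at 8.48 to 9.44 CPM in HopCA and 10.06 to 16.5 CPM in control. Pgk overlaps Bacc over 624 bases, and Bacc was at 254 to 321 CPM in HopCA and 269 to 290 CPM in control. Between 0.831% and 1.16% of Pgk reads in a library were not unique to it. Exon-exon reads of Pgk gave a log2 ratio of mean CPM of -0.21. CR44321, opposite Ald, was at 0 in each library.

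PyK, on chromosome 3R at 22367536 to 22372746 (plus strand), encodes pyruvate kinase, the last step of glycolysis and its second ATP-forming one. It had 475, 590 and 495 CPM in HopCA, against 716, 646, 762 and 820 CPM in control. The groups did not overlap, HopCA replicate 2 being nearest to control replicate 2. PyK fell by 0.50 on the log2 scale (SE 0.115, edgeR adjusted p = 0.0145). The call was lost without HopCA replicate 1 (edgeR adjusted p = 0.0639) and without HopCA replicate 3 (0.0660).

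ImpL3, on chromosome 3L at 6259105 to 6262694 (minus strand), was the gene of the 10 with the largest decrease and the widest interval. It had 61.4, 130 and 83.3 CPM in HopCA, against 189, 140, 211 and 269 CPM in control. HopCA replicate 2 and control replicate 2 lay close together, while the other libraries of the groups were far apart. The means were 91.7 ± 35.2 CPM in HopCA and 202 ± 53.1 CPM in control (SD, n = 3 and 4), and ImpL3 fell by 1.14 on the log2 scale (SE 0.305, 95% interval -1.86 to -0.42, edgeR adjusted p = 0.0279). The call was lost without HopCA replicate 1 (0.0740), HopCA replicate 3 (0.0985), control replicate 3 (0.0590) or control replicate 4 (0.0565), all as edgeR adjusted p, with log2 values of -0.92 to -1.13. Exon-exon reads numbered 142, 323 and 203 in HopCA and 430, 396, 424 and 688 in control, a log2 ratio of mean CPM of -1.11.

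**Figure D2:**
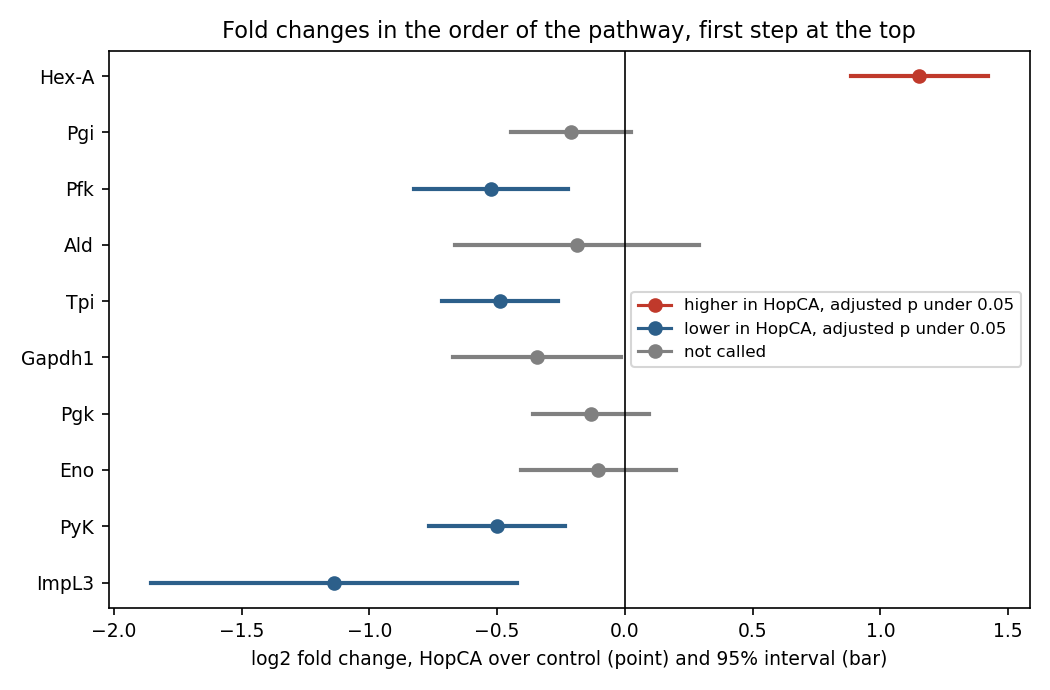
Log2 fold change of HopCA over control (points) with its 95% interval (bars) for the 10 genes, in pathway order from top to bottom, coloured by call. Hex-A is at 1.15, ImpL3 at -1.14, and the 8 genes between them in the pathway lie from -0.52 to -0.10.

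Per length, the middle steps were the most abundant in both groups. In HopCA the order of mean TPM was Gapdh1 (846), Ald (452), Eno (430), PyK (356), Tpi (339), Pgk (314), Pgi (152), Hex-A (118), ImpL3 (71.6) and Pfk (53.3). In control it was Gapdh1 (1044), Ald (504), PyK (490), Tpi (463), Eno (449), Pgk (334.3), Pgi (171), ImpL3 (155), Pfk (74.5) and Hex-A (51.5). Mean ± SD ranges of neighbours in this order overlapped from Ald to Pgk, and for ImpL3 and Pfk, in HopCA. In control they overlapped from Ald to Eno, and for Pgi and ImpL3. Hex-A thus had the lowest TPM of the 10 genes in control and exceeded ImpL3 and Pfk in HopCA. Its part of their summed TPM was 4.36%, 3.10% and 3.95% in HopCA, against 1.20%, 1.47%, 1.37% and 1.46% in control. The 10 genes together took 0.458% to 0.574% of all gene reads in HopCA and 0.508% to 0.695% in control, so that their total overlapped between the groups.

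Within groups, most of the 10 genes had the same highest and the same lowest library. How many of all tested genes did so was not counted. HopCA replicate 2 was the highest HopCA library and HopCA replicate 1 the lowest for 9 of the 10 genes, Hex-A being the exception in both. Among controls, replicate 4 was the highest for 8 genes and replicate 2 the lowest for 8. The spread differed by gene. The highest HopCA library had 2.12 times the ImpL3 level of the lowest and 1.06 times that of Hex-A, and the corresponding ratios in control were 1.91 and 1.37.

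Muscle markers moved with several of these genes. Of the 20 muscle markers, 9 were called lower and none higher, with a median log2 fold change of -1.23. The count was 2 without HopCA replicate 1 or 3, 17 without HopCA replicate 2, 4 without control replicate 1 and 3 without control replicate 3 or 4. It was 15 with DESeq2, 14 with limma-voom, 3 with no filter on low counts and 0 at an adjusted p under 0.01. Act87E, a muscle actin, had 89.4, 209 and 93.9 CPM in HopCA and 366, 350, 523 and 594 CPM in control (log2 -1.81 ± 0.367 SE, edgeR adjusted p = 0.0110). The other called muscle markers included the myosin light chain gene Mlc2 (log2 -1.70 ± 0.417 SE), which lost its call without HopCA replicate 1 or 3 (edgeR adjusted p = 0.0577 and 0.0768), Mlc1 (-1.42 ± 0.443) and the tropomyosin gene Tm2 (-1.37 ± 0.426). Mlc1 and Tm2 lost theirs when HopCA replicate 1 or 3 or control replicate 1, 3 or 4 was left out (edgeR adjusted p 0.0709 to 0.149). The summed muscle level ordered the HopCA libraries as 9 of the 10 genes did, and the control libraries as Ald, Eno, PyK and ImpL3 did. 7 fat body markers, none of them called, gave the same order in HopCA, with sums of 2289, 4450 and 2445 CPM, against 6500, 1800, 4746 and 2030 CPM in control. 10 hemocyte markers, none of them called, summed to 1805, 2481 and 1178 CPM in HopCA and 1815, 1907, 2011 and 2037 CPM in control, so HopCA replicate 2 was again the highest. No fat body or hemocyte marker was at 0 in all libraries. Per 1000 CPM of summed muscle markers, ImpL3 stood at 12.1, 10.1 and 12.9 CPM in HopCA and 12.1, 11.6, 10.7 and 10.9 CPM in control, so that this ratio overlapped. The same ratio also overlapped for Pgi, Pfk, Tpi and PyK, but only through HopCA replicate 2. For each of them this ratio was higher in HopCA replicates 1 and 3 than in every control library. For PyK it was 93.8 and 76.7 CPM in those libraries, against 33.4 to 53.6 CPM in control. For Hex-A it was 23.6 to 64.004 CPM in HopCA and 6.92 to 10.6 CPM in control, and it was higher in every HopCA library for Ald, Gapdh1, Pgk and Eno too. The divisor was mostly lower in HopCA, so a gene of equal CPM gives a higher ratio there, and these 4 genes were not called on CPM. The share of all genes that separate in this ratio was not counted. HopCA replicate 2 and control replicate 2 had nearly equal summed muscle levels, 12928 and 12060 CPM. Single markers differed in both directions, with Act57B at 3119 and 2622 CPM and Mlc2 at 1577 and 2023 CPM. Between those libraries ImpL3 was at 130 and 140 CPM, PyK at 590 and 646 CPM, Tpi at 379 and 439 CPM, and Pfk at 179 and 203 CPM. The other genes were higher in HopCA replicate 2. Hex-A was at 305 and 128 CPM, Ald at 1466 and 966 CPM, and Eno at 1195 and 928 CPM. Gapdh1 was at 975 and 868 CPM, Pgk at 473 and 417 CPM, and Pgi at 266 and 252 CPM. The part of muscle, fat body or hemocyte transcripts in the changes was not tested.

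**Figure D3:**
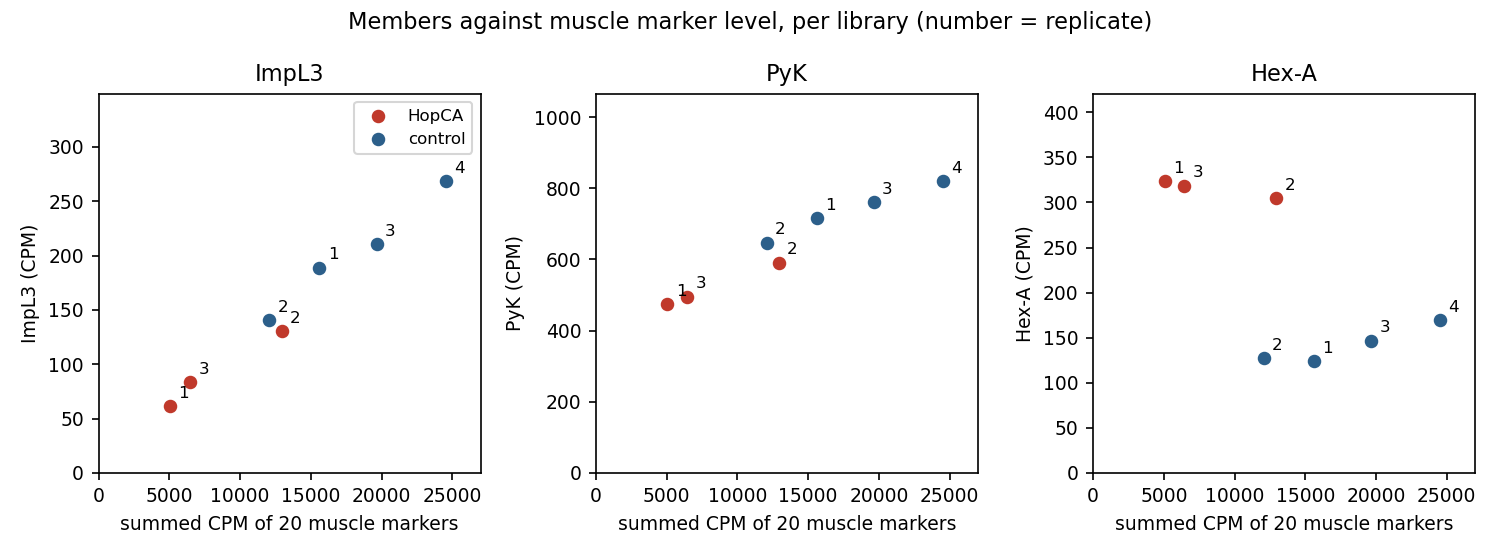
CPM of ImpL3, PyK and Hex-A (vertical axes) against the summed CPM of 20 muscle markers (horizontal axes) in the 3 HopCA (red) and 4 control (blue) libraries, numbered by replicate. ImpL3 runs from 61.4 CPM at a muscle level of 5059 CPM to 269 CPM at 24537 CPM across both groups, while Hex-A is at 305 CPM in HopCA replicate 2 and 128 CPM in control replicate 2 at similar muscle levels.

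The genes whose profile over the 7 libraries was most like that of ImpL3 were Glycogenin, Actn, CRMP, Zasp52 and sls, among 5610 other genes whose log2 CPM averaged 4 or more. Likeness was the root mean square difference in log2 CPM after centring each gene on its mean, and was 0.104 for Glycogenin and 0.141 to 0.160 for the others. Glycogenin, the primer of glycogen synthesis, had 61.8, 132 and 68.5 CPM in HopCA and 177, 145, 211 and 258 CPM in control, close to ImpL3 in each library. Of Glycogenin reads 88.9% to 90.4% in a library were not unique to it, and of sls reads 23.3% to 43.0%. Both profiles are therefore uncertain. Actn, Zasp52 and sls, which encode alpha-actinin and other Z-disc and sarcomere proteins, are also in the list of muscle markers. Of the other 9 genes of the pathway, Pfk (0.408) and PyK (0.421) came nearest, at ranks 164 and 176 of the 5610, and Hex-A was at rank 5510.

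The counts of the lists of neighbouring pathways that follow are to be read against all tested genes, of which 16.4% were called higher and 15.1% lower. Of 12 tested genes of sugar uptake, trehalose and glycogen, 4 were called lower and none higher, with a median log2 fold change of -0.20. AGBE, the glycogen branching enzyme, had 85.6, 100.3 and 82.2 CPM in HopCA and 161, 126, 166 and 183 CPM in control (log2 -0.83 ± 0.138 SE, edgeR adjusted p = 0.00424), without overlap. Glycogenin (log2 -1.18 ± 0.315 SE), Tret1-1, a trehalose transporter (-0.62 ± 0.139), and the phosphoglucomutase gene Pgm (-0.61 ± 0.143) also fell, but each lost its call without HopCA replicate 1 (edgeR adjusted p = 0.0819, 0.0530 and 0.0627). Glycogenin also lost it without HopCA replicate 3 (0.0997) or control replicate 3 or 4 (0.0593 and 0.0596), and Pgm without HopCA replicate 3 (0.0655). Between 89.7% and 93.04% of Tret1-1 reads and 88.9% and 90.4% of Glycogenin reads in a library were not unique to the gene, so both counts are uncertain. On unique reads alone Glycogenin was called (log2 -1.21, edgeR adjusted p = 0.0248) and Tret1-1 was not (log2 -0.74, edgeR adjusted p = 0.109). The glucose transporter gene Glut1 was not called (log2 -0.25 ± 0.154 SE, edgeR adjusted p = 0.254). The muscle markers given above were lower in the same libraries, and their part in these changes was not tested.

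Of 10 tested genes of pyruvate entry, 4 were called higher and none lower, with a median log2 fold change of 0.15. Mpc1, a subunit of the mitochondrial pyruvate carrier, had 74.4, 86.9 and 80.5 CPM in HopCA and 51.4, 35.1, 55.1 and 47.8 CPM in control (log2 0.77 ± 0.148 SE, edgeR adjusted p = 0.00748). CG7430, the dihydrolipoamide dehydrogenase of the pyruvate dehydrogenase complex, rose by log2 0.46 ± 0.0890 SE (edgeR adjusted p = 0.00730). CG9399, another carrier subunit, and l(1)G0334, the alpha subunit of pyruvate dehydrogenase, rose by log2 0.65 ± 0.181 and 0.43 ± 0.115 SE. CG9399 lost its call without any 1 HopCA library (edgeR adjusted p 0.0517 to 0.0927) or without control replicate 1 or 4 (0.0589 and 0.0506), and l(1)G0334 without HopCA replicate 2 or 3 (0.0836 and 0.0834). Both pyruvate dehydrogenase kinase, which inhibits the complex, and its phosphatase were not called (Pdk log2 -0.24 ± 0.108 SE, Pdp log2 0.03 ± 0.0781 SE).

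Of 18 tested genes of the tricarboxylic acid cycle, 2 were called higher and 1 lower, against 16.4% and 15.1% of all tested genes, and their median log2 fold change was 0.00. Nc73EF, the oxoglutarate dehydrogenase gene, rose by log2 0.44 ± 0.0901 SE (edgeR adjusted p = 0.00905), and Idh, an NADP-dependent isocitrate dehydrogenase gene, fell by 0.49 on the log2 scale (SE 0.0936, edgeR adjusted p = 0.00721). The other isocitrate dehydrogenase genes of the list, l(1)G0156, Idh3b and CG5028, were not called. Mdh2, the mitochondrial malate dehydrogenase gene, rose by log2 0.43 ± 0.130 SE, and lost its call without any 1 HopCA library (edgeR adjusted p 0.0694 to 0.128) or without control replicate 3 or 4 (0.0656 and 0.0677).

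Of 7 pentose phosphate genes, 1 was called higher and 2 lower, with a median log2 fold change of 0.06. Zw, the glucose-6-phosphate dehydrogenase gene that draws on the product of hexokinase, was at 54.5 ± 1.12 CPM in HopCA and 47.8 ± 2.35 CPM in control (SD, n = 3 and 4) and was not called (log2 0.19 ± 0.0680 SE, edgeR adjusted p = 0.0673). The transketolase gene CG8036 fell by 0.41 on the log2 scale (SE 0.0950) and lost its call without HopCA replicate 2 or 3 (edgeR adjusted p = 0.0615 and 0.0685). Taldo, the transaldolase gene, fell by 0.29 on the log2 scale (SE 0.0812) and CG30499, the ribulose phosphate epimerase gene, rose by log2 0.35 ± 0.0874 SE. Both lost their calls without HopCA replicate 1 (edgeR adjusted p = 0.113 and 0.0675), HopCA replicate 3 (0.132 and 0.0604) or control replicate 3 (0.0638 and 0.0581), Taldo also without control replicate 4 (0.0640) and CG30499 also without HopCA replicate 2 (0.0602).

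Of 7 genes of glycolysis regulation, gluconeogenesis and the glycerol phosphate shuttle, 2 were called higher and none lower. Pepck, which encodes the phosphoenolpyruvate carboxykinase that opens gluconeogenesis, had 237, 138 and 128 CPM in HopCA and 59.9, 68.7, 82.9 and 57.98 CPM in control (log2 1.32 ± 0.234 SE, edgeR adjusted p = 0.00633). HopCA replicate 1 was well above the other HopCA libraries, which were themselves above all controls. None of the Pepck reads in any library was unique to the gene, so that it could not be tested on unique reads and its count is uncertain. CG10924, its paralog, rose by log2 0.91 ± 0.278 SE, and lost its call without any 1 HopCA library (edgeR adjusted p 0.0632 to 0.145) or without control replicate 3 or 4 (0.103 and 0.0593). It was also not called without a filter on low counts (0.0503). Pfrx, which makes and breaks the activator of phosphofructokinase, was not called (log2 -0.16 ± 0.0915 SE, edgeR adjusted p = 0.223), and at least 98.99% of its reads in each library were not unique to it. Among 15 glycolytic paralogs and remaining steps, 10 were under 1 CPM in every library, and of 6 tested, Gapdh2 and CG11249, a pyruvate kinase-like gene at 0.680 CPM or less in each library, were called lower. CG11249 lost its call without any 1 HopCA library (edgeR adjusted p 0.0622 to 0.112), and without a filter on low counts (0.0575). It dropped out of the test without control replicate 1, 3 or 4, on unique reads and with a filter of 1 CPM in 3 libraries.

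Regulators known to act on glycolytic genes were mixed. Of 10 tested, 3 were called higher and 1 lower, with a median log2 fold change of 0.30. ERR, the nuclear receptor known to drive the larval glycolytic genes of Drosophila, was at 23.2, 18.8 and 20.9 CPM in HopCA and 21.4, 23.7, 24.04 and 22.99 CPM in control, and was not called (log2 -0.13 ± 0.0913 SE, 95% interval -0.35 to 0.08, edgeR adjusted p = 0.293). Of its reads 49.3% to 60.05% were not unique to it, and on unique reads its log2 fold change was -0.06. sima, the HIF-1 alpha gene, was not called (log2 0.29 ± 0.130 SE, edgeR adjusted p = 0.126). tgo, the HIF-1 beta gene, rose by log2 0.44 ± 0.0847 SE (edgeR adjusted p = 0.00757). Hph, the HIF prolyl hydroxylase gene, rose by log2 0.41 ± 0.129 SE, and lost its call without any 1 HopCA library (edgeR adjusted p 0.0881 to 0.123) or without control replicate 3 or 4 (0.0713 and 0.0822). crc, the fly ATF4, rose to 1648 ± 53.4 CPM in HopCA, against 968 ± 53.6 CPM in control (SD, n = 3 and 4; log2 0.77 ± 0.0773 SE, edgeR adjusted p = 6.81e-04). Of crc reads 67.4% to 70.3% were not unique to it, and on unique reads its log2 fold change was 0.81 (edgeR adjusted p = 4.88e-04). foxo fell by 0.54 on the log2 scale (SE 0.121, edgeR adjusted p = 0.0137).

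**Figure D4:**
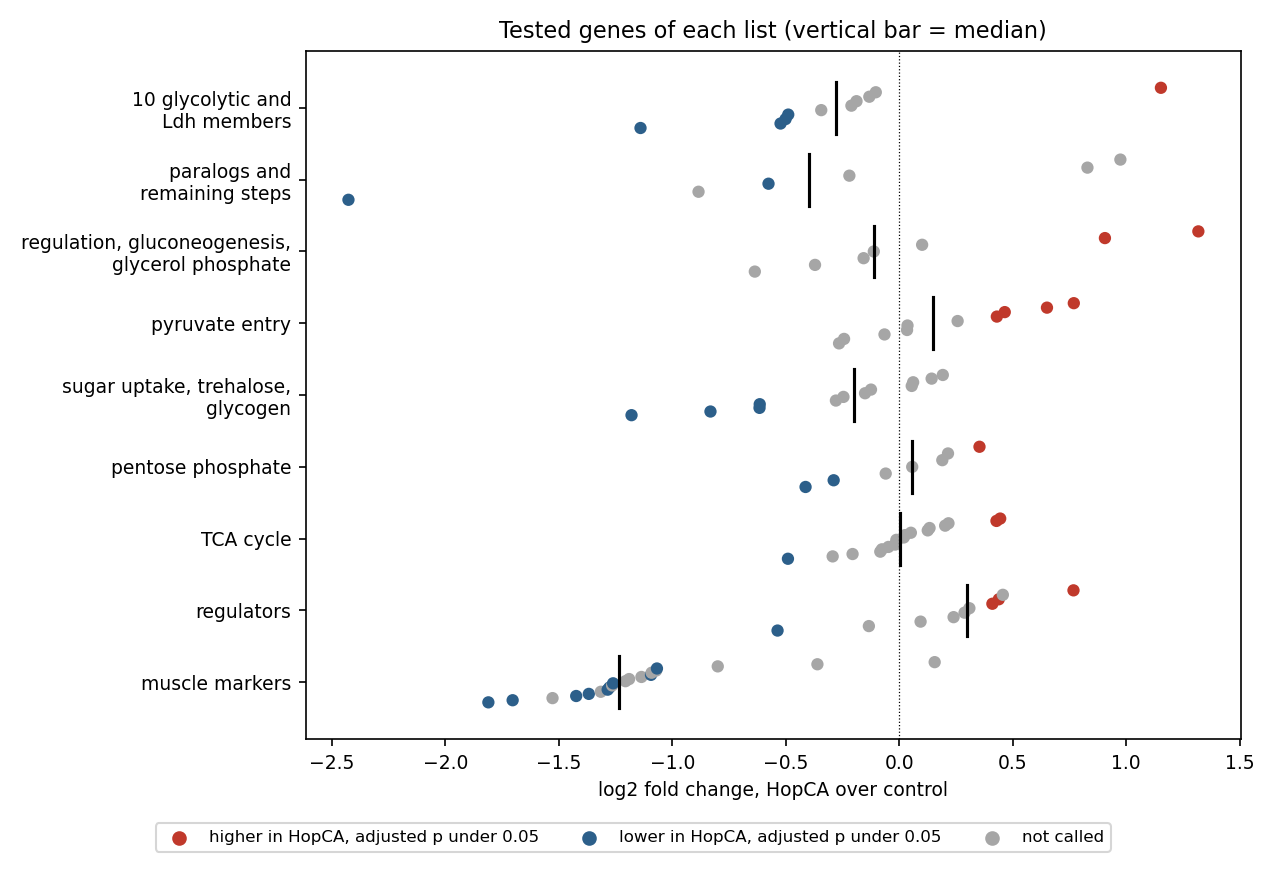
Log2 fold change of HopCA over control (horizontal axis) for every tested gene of each list (rows), red where called higher, blue where called lower and grey where not called, with the list median as a vertical bar. The medians are -0.28 for the 10 glycolytic and lactate dehydrogenase genes, 0.15 for pyruvate entry, 0.00 for the tricarboxylic acid cycle and -1.23 for the muscle markers.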

How the data were processed

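The authors deposited 1 table per library, which per the file headers holds whole-number counts of reads for each gene (all, unique, exon, exon-exon and intron) and TPM. Deposited counts carry no normalization. TPM was the authors' scaling by exon length to 1000000 per library, and was used only to compare levels between genes. Per the submitters' processing notes, cutadapt 1.8.1 and the dm6 build were used. No source used here names the aligner or the counting program, so how shared reads were assigned is unknown. Gene positions are from the files and equal those of the Ensembl annotation for the 10 genes.

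Total gene reads were analysed with edgeR 4.0.16 (R 4.3.3): filterByExpr (minimum count 10, minimum total 15), TMM, robust glmQLFit with group as the only term, and glmQLFTest, tested first on simulated data. 9457 genes were tested, and the biological coefficient of variation was 0.199. Each SE is the size of the log2 fold change divided by the root of its F statistic, and 95% intervals use the test's degrees of freedom. No pair of libraries matched within sampling noise (lowest chi-square per degree of freedom 20.6). Alternatives were RLE factors, library size only, other filters, DESeq2 1.42.0, limma-voom 3.58.1, unique or exon reads, an adjusted p under 0.01, a replicate block, leaving out the 20 genes with most reads, and left-out libraries. The 10 genes, the lists and the tests were chosen with earlier results of these data known. All 10 genes are named. Of each companion list up to 4 called genes of the largest change are named by rule, apart from the fat body, hemocyte, imaginal disc and nervous system lists, and other named genes were chosen after their values were seen.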

Additional observations from a re-analysis of the deposited data

Results flagged for a closer look

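Nc73EF, the oxoglutarate dehydrogenase gene, was at 180 CPM in control replicate 1, far below the other control libraries, which lay at 211 to 217 CPM. Every HopCA library, at 267, 298 and 272 CPM, was above all of them. Chance alone marks about 1 in 20 such groups of 4 libraries, and this was the only one marked among 48 genes examined in this way.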

How the results depend on the processing

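The count of the 10 genes called was 5 in the main test, with 1 higher and 4 lower. It was 2 (1 lower) at an adjusted p under 0.01, and ran from 2 to 6 (1 to 5 lower) when each library was left out in turn. Over all genes 2978 were called, against 1312 at an adjusted p under 0.01, 1573 without control replicate 2 and HopCA replicate 1, and 1676 to 3407 with each library left out. The same 5 of the 10 genes were called with RLE factors, library size only, both other filters, DESeq2, limma-voom, unique reads, exon reads and without the 20 most abundant genes. Without both control replicate 2 and HopCA replicate 1, Pfk lost its call among the 10. All alternatives for the companion lists and their genes were added after seeing the data. None of the 10 changed direction in any setting. Same-numbered libraries did not deviate together (r of deviations -0.223, -0.432 and -0.069 for numbers 1 to 3), and the main test did not pair them. Correlations over so few libraries cannot show whether equal numbers were handled together. With the replicate number as a block, 938 genes were called over all, 1 of the 10 and 0 lower. Control replicate 4 has no HopCA library of its number, so it adds nothing to the group difference in that fit. Fewer residual degrees of freedom remain there too, so the lower counts cannot be put down to pairing alone. Depth did not limit the 10 genes, which had at least 1161 reads in each library, whereas most paralogs were near 0.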
